A study of Arabidopsis thaliana with 4 samples.

Results

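Rubisco, the enzyme that fixes carbon dioxide in the Calvin-Benson cycle, is built from a large subunit encoded in the chloroplast genome and a small subunit encoded in the nucleus. In Arabidopsis thaliana the small subunit is made from a family of RBCS genes, and the ATP-dependent chaperone Rubisco activase, made from RCA, removes inhibitory sugar phosphates from the active site. These nuclear genes are switched on by light, in part through G-box and I-box motifs before the RBCS genes, and their transcripts are among the most abundant of green tissue. The genes described here are RBCS1A (AT1G67090), RBCS1B (AT5G38430), RBCS2B (AT5G38420), RBCS3B (AT5G38410) and RCA (AT2G39730), chosen by locus, 5 of the 23174 genes in the table of expression values. All 5 had values in every library and all 5 passed the minimum level for testing.

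Messenger RNA was measured by polyA-selected, stranded RNA-seq in seedlings of 14 days, grown on MS agar at 22 °C with 16 h of light a day. The 2 groups were wild-type and atino80-5, with 2 libraries each; INO80 is a chromatin-remodelling ATPase, and the labels do not describe the lesion of this allele. The labels name no accession, transgene or other agent for either group, and they do not tell whether a group's libraries are separate cultures. The p-values therefore cover only library-to-library spread, which may be technical. Seedlings hold cotyledons, leaves and roots, and in such bulk samples fewer green cells and less RNA per cell cannot be told apart.

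Values are FPKM, fragments per kilobase of gene scaled for library size, as the authors deposited them. The libraries held 13068214 to 18406709 reads, with size factors of 0.785 to 1.35. INO80 itself stood at 4.28 and 4.54 FPKM in wild-type, against 2.72 and 3.13 FPKM in atino80-5 (log2 difference -0.46, SE 0.15, limma adjusted p = 0.117), so both mutant libraries lay lower but the test was not passed (adjusted p = 0.0392 by limma with libraries scaled to the FPKM sum, and 0.0247 without atino80-5 replicate 2). Of the mutant libraries, atino80-5 replicate 1 lay farther from wild-type. It correlated across genes at r = 0.933 and 0.939 with the wild-type libraries, against 0.963 and 0.968 for atino80-5 replicate 2 (genes are not independent replicates). The mutant libraries correlated with each other at r = 0.973, and the wild-type libraries at r = 0.990. Differences of the RBCS genes and RCA and the medians of gene lists are given with and without atino80-5 replicate 1. Of 17642 genes averaging 1 FPKM or more, limma called 955, or 5.41%, at an adjusted p under 0.05.

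RBCS1A lies alone on chromosome 1 (chr1:25048158-25049667 in the RefSeq annotation of TAIR10.1, minus strand), and RCA lies on chromosome 2 (chr2:16570746-16573692, minus strand). RBCS3B (chr5:15376988-15378642), RBCS2B (chr5:15380907-15382071) and RBCS1B (chr5:15383167-15385320) follow each other on the minus strand of chromosome 5 within 8333 bases. The transcripts used here have 3 exons for each RBCS gene and 7 for RCA. RCA overlaps AT2G39725 by 3 bases, and none of the RBCS genes overlaps another gene in that annotation. The coding sequences of the chromosome 5 genes were 96.7% to 97.3% identical to each other, whereas RBCS1A was 90.1% to 90.5% identical to them. The first 60 bases of the last coding exon show how close the copies are, with capitals where a base differs from RBCS2B.
RBCS2B (chr5:15381383-15381442): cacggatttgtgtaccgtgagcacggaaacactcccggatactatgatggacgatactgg
RBCS1B (chr5:15384530-15384589): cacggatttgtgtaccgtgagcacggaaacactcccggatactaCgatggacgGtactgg
RBCS3B (chr5:15377681-15377740): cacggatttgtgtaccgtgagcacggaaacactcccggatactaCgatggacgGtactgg
RBCS1A (chr1:25048642-25048701): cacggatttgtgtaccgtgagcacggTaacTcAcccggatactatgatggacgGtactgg
In this stretch RBCS1B and RBCS3B have the same letters, so a read that lies inside it cannot be assigned to either gene. Of the windows of 100 bases along the spliced transcript, 7.47% of RBCS1B and 12.1% of RBCS3B occurred letter for letter in the other, and 0 windows of RBCS1A, RBCS2B and RCA occurred in a transcript of another gene. Of windows of 50 bases, 14.0% of RBCS1B, 21.4% of RBCS2B, 18.3% of RBCS3B and 1.48% of RBCS1A were shared. No source used here gives the read length or the counting of reads with several matches. The split between RBCS1B and RBCS3B is therefore less certain than their sum, while RCA shared 0 windows of either length.

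The regions before the start codons are shown because the small subunit genes differ there in their light-response motifs. Whether the motifs bear on the levels was not tested. The G-box, searched as CACGTG, is bound by light-regulated bZIP factors such as HY5 and the GBF proteins, and the I-box was searched as GATAAG. Both strands were searched in the 300 bases before the start codon, and the motifs were counted also where 2 copies overlap. Positions count back from -1, the base before the start codon, to the first base of the motif. The stretches from -250 to -151 of RBCS2B and RBCS1B are printed first, and then windows of 30 bases at the G-box and at the I-box nearest to the start codon of the other genes, all read on the minus strand of TAIR10.1, with both motifs in capitals.
RBCS2B (chr5:15382129-15382228): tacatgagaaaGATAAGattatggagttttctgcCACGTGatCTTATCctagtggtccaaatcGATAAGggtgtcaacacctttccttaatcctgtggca
RBCS1B (chr5:15385306-15385405): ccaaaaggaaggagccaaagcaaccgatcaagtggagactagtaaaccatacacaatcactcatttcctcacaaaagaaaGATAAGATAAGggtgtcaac
RBCS1A, G-box (chr1:25049491-25049520): ggaattatcttcCACGTGgcattattccag
RBCS1A, I-box (chr1:25049462-25049491): gcggttcaagccGATAAGggtctcaacacc
RBCS3B, G-box (chr5:15378506-15378535): ggagttttctgcCACGTGgcCTTATCctag
RBCS3B, I-box (chr5:15378477-15378506): gtggtgcgtaccGATAAGggtgtcaacacc
RCA, G-box (chr2:16573579-16573608): ataaacatattcCACGTGgaccaatcaaaa
RBCS1A, RBCS2B and RBCS3B each had 1 G-box, at -259, -216 and -217. In all 3 genes an I-box began 29 bases after the start of the G-box, and another began 24 bases before it in RBCS1A and 23 bases before it in RBCS2B and RBCS3B. RBCS2B and RBCS3B held a further I-box on the other strand, at -208 and -209. RBCS1B had no CACGTG in its window, and its 2 I-boxes, at -170 and -165, overlap each other. RCA had 1 G-box, at -251, and no I-box in its window. Among 27443 protein-coding genes, 6.23% had a G-box in such a window, 15.5% an I-box and 1.07% both. The G-boxes of RBCS1A, RBCS3B and RCA fall inside the longest annotated transcript of each gene but before the start of a shorter one.

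RBCS1A was the most abundant transcript of the data. It stood at 34644 and 24951 FPKM in wild-type, against 20628 and 36160 FPKM in atino80-5. The mutant libraries held both the lowest and the highest value, so the genotypes overlapped. RBCS1A ranked first of all genes in 3 libraries and 2 in atino80-5 replicate 1. It took 4.72% and 3.45% of all reads in wild-type and 2.34% and 4.43% in atino80-5, and the counting intervals are narrow at this depth (for atino80-5 replicate 1, 2.33% to 2.34% by Wilson's 95% method, covering counting error only). The genotype difference was far inside the spread between libraries (log2 difference -0.11, SE 0.43, 95% interval -1.15 to 0.94, limma adjusted p = 0.889). Without atino80-5 replicate 1 it was 0.30, without atino80-5 replicate 2 it was -0.51, and without wild-type replicate 1 it was 0.13.

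RBCS3B, the second most abundant small subunit gene, followed the same order of libraries. It stood at 14087 and 10071 FPKM in wild-type, against 7576 and 15325 FPKM in atino80-5, 2.02 times as high in one mutant library as in the other. Here too the mutant values lay on either side of the wild-type values (log2 difference -0.14, SE 0.44, limma adjusted p = 0.847). The difference was 0.36 without atino80-5 replicate 1, -0.65 without atino80-5 replicate 2 and 0.10 without wild-type replicate 1.

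RBCS2B, the middle gene of the chromosome 5 array, stood at 5420 and 4833 FPKM in wild-type, against 3600 and 5627 FPKM in atino80-5. Its wild-type libraries differed by 1.12 times, the closest of the small subunit genes, and its mutant libraries by 1.56 times. The genotypes overlapped and the test was not passed (log2 difference -0.19, SE 0.33, limma adjusted p = 0.733). The difference was 0.14 without atino80-5 replicate 1 and -0.51 without atino80-5 replicate 2.

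RBCS1B, the least abundant small subunit gene, had another pattern. It stood at 2031 and 1258 FPKM in wild-type, against 2231 and 2797 FPKM in atino80-5. Both mutant libraries lay above both wild-type libraries. The mean was 1645 ± 547 FPKM in wild-type, against 2514 ± 401 FPKM in atino80-5 (SD, n = 2), a ratio of 1.53, but the test was not passed (log2 difference 0.64, SE 0.32, 95% interval -0.14 to 1.42, limma adjusted p = 0.247). In the authors' deposited table its log2 fold change was 0.61 with an adjusted p of 0.109. The limma log2 difference ranged from 0.30 without wild-type replicate 2 to 0.99 without wild-type replicate 1, so 1 wild-type library moves it by more than 1.5 times either way. Without atino80-5 replicate 1 it was 0.81.

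RCA, the activase gene, stood at 1124 and 1353 FPKM in wild-type, against 1890 and 1509 FPKM in atino80-5. Both mutant libraries lay above both wild-type libraries, and within the mutant the order was the reverse of that of the small subunit genes, with the higher value in atino80-5 replicate 1. The mean was 1239 ± 162 FPKM in wild-type, against 1700 ± 269 FPKM in atino80-5 (SD, n = 2), a ratio of 1.37. The test was not passed (log2 difference 0.45, SE 0.26, 95% interval -0.17 to 1.08, limma adjusted p = 0.297). Its log2 fold change in the authors' deposited table was 0.46 with an adjusted p of 0.179. Without atino80-5 replicate 1 the limma log2 difference was 0.29.

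**Figure D1:**
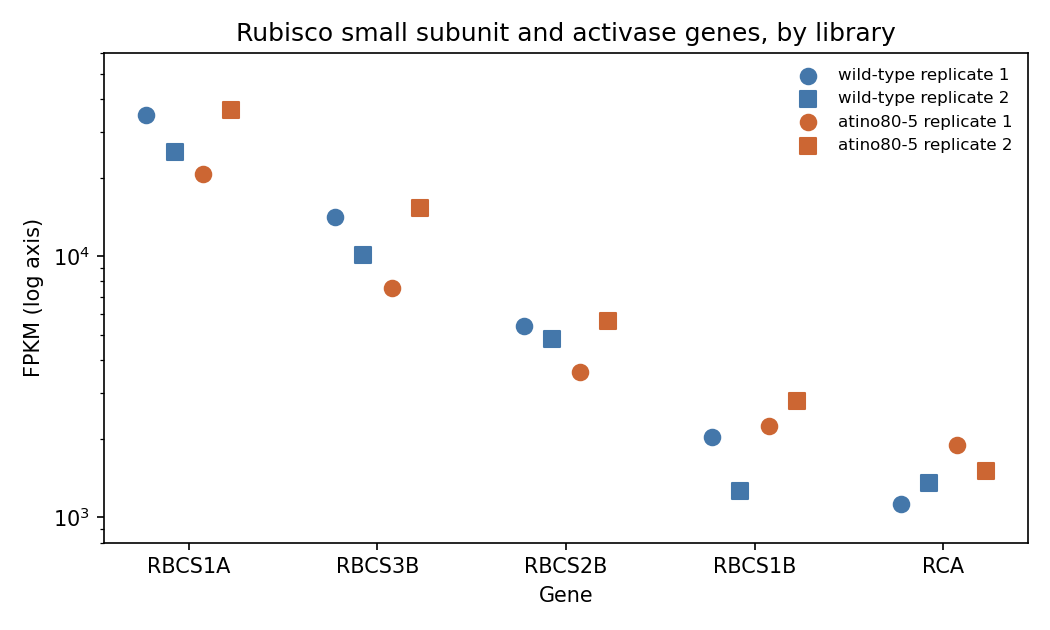
FPKM (log axis) of the 4 RBCS genes and RCA in each library, with wild-type in blue, atino80-5 in orange, circles for replicate 1 and squares for replicate 2. For RBCS1A, RBCS3B and RBCS2B the lowest value is atino80-5 replicate 1 and the highest atino80-5 replicate 2, while for RBCS1B and RCA both mutant libraries lie above both wild-type libraries.

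Of the 5 genes, limma called 0 (0 with an unadjusted p under 0.05), beside 5.41% of all tested genes, of which 2.99% rose and 2.42% fell. With limma voom on recovered reads 0 were called too, and 1 gene, RBCS1B, had an unadjusted p under 0.05 (0.0472). RBCS1B also reached that level by limma without the trend option (unadjusted p = 0.0473). The authors' deposited DESeq2 table gave adjusted p-values from 0.109 to 0.923 for the 5 genes, and unadjusted p-values of 0.0155 for RBCS1B and 0.0335 for RCA. The libraries of the genotypes did not overlap for 2 of the 5 genes, RBCS1B and RCA. Over all tested genes that share was 62.2%, so 2 of 5 is no more than the background. The intervals are wide. For RBCS1A the data allow anything from a log2 difference of -1.15 to 0.94, so a moderate change in either direction was not detectable with these libraries.

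Comparing genes needs a level per length, and the FPKM values imply a length for each gene that is not its annotated exon length throughout. For RBCS1A, RBCS3B and RCA it equals the genomic span of an annotated transcript with its introns, 1267, 1244 and 2774 bases, beside 1268, 1410 and 2101 bases of exon over all transcripts. For RBCS2B and RBCS1B it was 1091 and 1131 bases, no transcript's span in this annotation, beside 935 and 1894 bases of exon. Of 22128 protein-coding genes compared, 24.1% had an implied length equal to such a span, so how the length was defined is not known here. On that scale the order was RBCS1A, RBCS3B, RBCS2B, RBCS1B and RCA by mean. The neighbours down to RBCS1B kept this order in every library, but RBCS1B and RCA did not, since RCA was the higher of the pair in wild-type replicate 2. In reads per kilobase of annotated exon, scaled to the reads of each library, RBCS1A averaged 29432, RBCS3B 10521, RBCS2B 5762, RCA 1925 and RBCS1B 1232, so RBCS1B and RCA change places. 

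Summed over the 4 small subunit genes, which depends little on how reads were split between the copies, the level was 56182 and 41112 FPKM in wild-type, against 34035 and 59909 FPKM in atino80-5. The mutant libraries again lay on either side of the wild-type pair (log2 difference -0.09, two-sided exact permutation p = 1.0, where 2 against 2 libraries cannot go below 0.333). The difference in log2 of the sum was 0.32 without atino80-5 replicate 1, -0.50 without atino80-5 replicate 2 and 0.14 without wild-type replicate 1.

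As a share of the FPKM sum of the library, RBCS took 10.4% and 8.05% in wild-type and 5.13% and 9.99% in atino80-5. The share was lowest in atino80-5 replicate 1, and atino80-5 replicate 2 lay between the wild-type values. The mean share was 9.24% ± 1.69 in wild-type and 7.56% ± 3.44 in atino80-5 (SD, n = 2, two-sided exact permutation p = 0.667). Of all recovered reads the share was 7.48% and 5.54% in wild-type and 3.76% and 7.17% in atino80-5. RBCS1A took 6.44%, 4.88%, 3.11% and 6.03% of the FPKM sum, given for the wild-type pair and then the atino80-5 pair, replicate 1 before 2. RBCS3B took 2.62%, 1.97%, 1.14% and 2.55% in the same order of libraries. RBCS2B took 1.01%, 0.946%, 0.542% and 0.938%, and RBCS1B 0.377%, 0.246%, 0.336% and 0.466%. By share, wild-type replicate 1 was highest for RBCS1A, RBCS3B and RBCS2B, whereas in FPKM atino80-5 replicate 2 was highest.

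As shares of the FPKM sum the genotypes overlap for RBCS1B, which did not overlap in FPKM. The share of RCA was 0.209% and 0.265% in wild-type and 0.285% and 0.252% in atino80-5, and it too overlapped (two-sided exact permutation p = 0.667). The FPKM sums themselves were larger in the mutant, 663788 and 599828 against 538233 and 510968 in wild-type. With libraries scaled to the same FPKM sum, the median log2 difference of all tested genes moved from 0.03 to -0.19. On that scale the log2 differences were -0.37 for RBCS1A, -0.41 for RBCS3B, -0.45 for RBCS2B, 0.38 for RBCS1B and 0.19 for RCA, and 0 of the 5 passed the test.

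**Figure D2:**
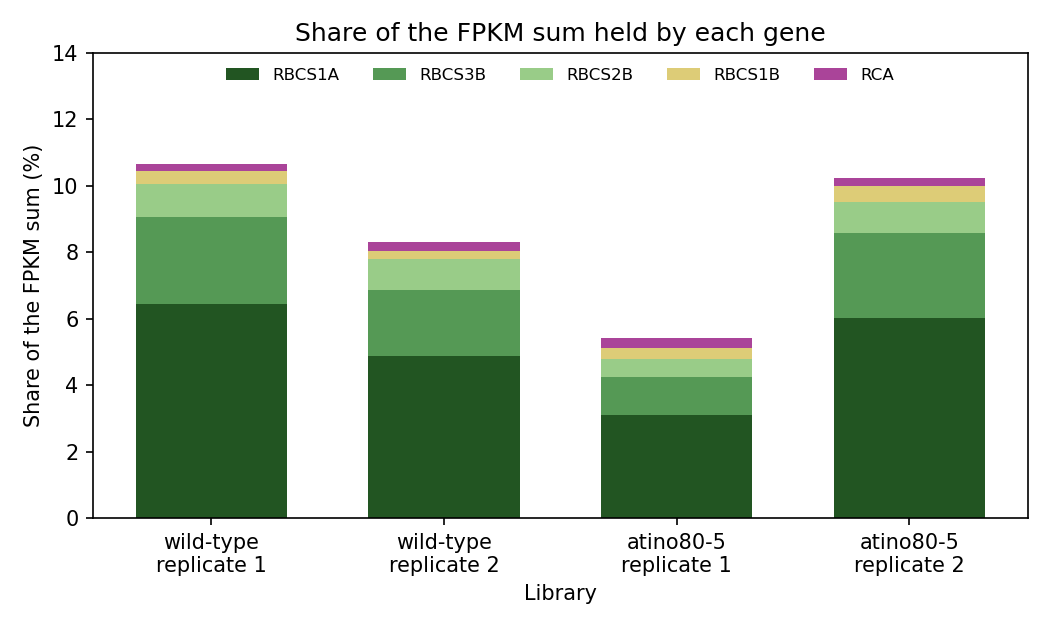
Share of the FPKM sum of each library (in percent) held by RBCS1A, RBCS3B, RBCS2B, RBCS1B and RCA, stacked from 0. The RBCS genes together take 5.13% in atino80-5 replicate 1 and between 8.05% and 10.4% in the other libraries, with RBCS1A the widest band in each.

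Ratios within a library do not depend on any scaling between libraries. RBCS1A made up 61.7% and 60.7% of the summed RBCS FPKM in wild-type and 60.6% and 60.4% in atino80-5, so its part of the family was nearly the same although the summed level differed widely between libraries. The values of the genotypes did not overlap, by a margin of less than 1 percentage point (two-sided exact permutation p = 0.333, the smallest possible here), and they overlapped when reads were used in place of FPKM (p = 0.667 by the same exact test). RBCS3B made up 25.1%, 24.5%, 22.3% and 25.6%, and RBCS2B 9.65%, 11.8%, 10.6% and 9.39%, again with the wild-type pair first. RBCS1B made up 3.62% and 3.06% in wild-type and 6.55% and 4.67% in atino80-5. Both mutant values of RBCS1B were higher, with means of 3.34% ± 0.393 and 5.61% ± 1.33 (SD, n = 2, two-sided exact permutation p = 0.333, the smallest possible here).

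The ratio of RCA to summed RBCS FPKM was 0.02001 and 0.0329 in wild-type and 0.0555 and 0.0252 in atino80-5. It was highest in atino80-5 replicate 1, where summed RBCS was lowest and RCA was highest. The genotypes overlapped (means 0.0265 ± 0.00913 and 0.0404 ± 0.0215, SD, n = 2, two-sided exact permutation p = 0.667), and without atino80-5 replicate 1 the difference was -0.00127.

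The distance between libraries of the same genotype was large for RBCS1A and RBCS3B and varied among the others. Between the wild-type libraries RBCS1A differed by 0.47 on the log2(FPKM + 1) scale, more than 95.9% of the 17642 tested genes, and between the mutant libraries by 0.81, more than 94.9% of them. For RBCS3B the gaps were 0.48 and 1.02, larger than those of 96.1% and 97.8% of tested genes. RBCS2B differed by 0.17 between the wild-type libraries, more than 62.8% of tested genes, and by 0.64 between the mutant libraries, more than 89.6%. RBCS1B differed by 0.69 between the wild-type libraries, more than 98.7% of tested genes, but by only 0.33 between the mutant libraries, more than 62.4%. RCA differed by 0.27 and 0.32, more than 83.0% and 62.1%. Other very abundant genes also had wide gaps: among the 54 genes averaging 1000 FPKM or more the median gap was 0.21 in wild-type and 0.52 in atino80-5, against 0.12 and 0.25 over all tested genes. Among those 54 genes the mutant gap of RBCS3B was larger than that of 90.7%, of RBCS1A 75.9%, of RBCS2B 59.3%, of RBCS1B 38.9% and of RCA 37.0%. The wild-type gap of RBCS1B was larger than that of 96.3%, of RBCS3B 90.7%, of RBCS1A 88.9%, of RCA 64.8% and of RBCS2B 37.0%.

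**Figure D3:**
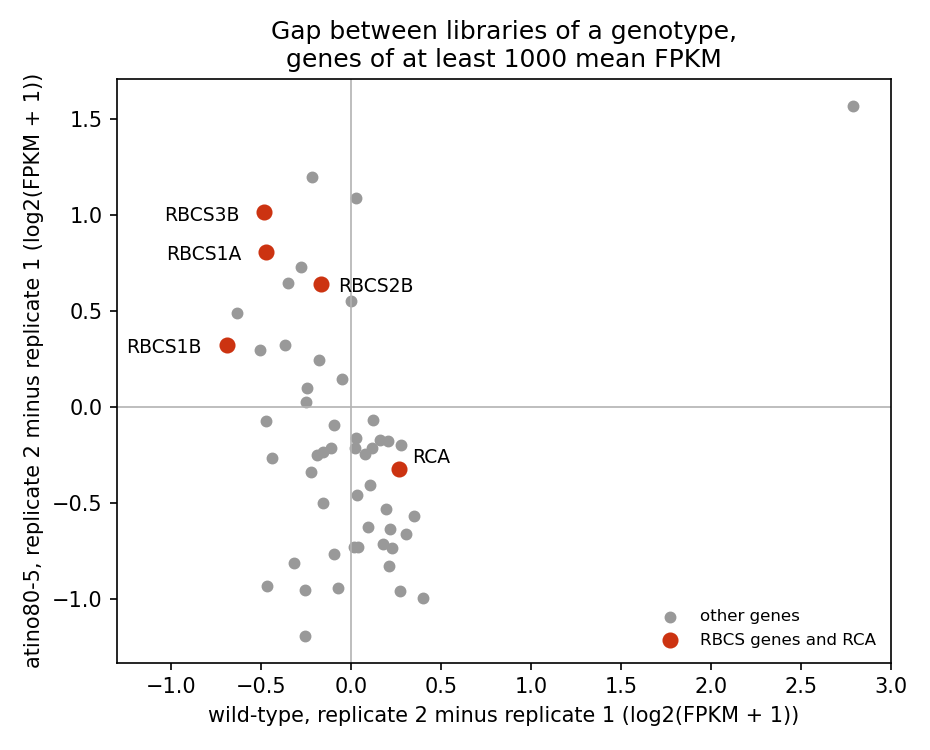
Difference between the libraries of a genotype, replicate 2 minus replicate 1, in wild-type (x axis) and atino80-5 (y axis), both in log2(FPKM + 1), for the 54 genes averaging 1000 FPKM or more. The RBCS genes lie at the upper left, lower in wild-type replicate 2 and higher in atino80-5 replicate 2, RCA lies at the lower right, and the lone gene at the far upper right is AT3G41768, annotated as ribosomal RNA.

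Of the 49 other genes at that level, 10 lay in the same quadrant as the RBCS genes and 22 in the quadrant of RCA. The genes nearest to summed RBCS in pattern, by Euclidean distance between mean-centred log2(FPKM + 1) values over the 4 libraries among 809 other genes of at least 100 mean FPKM, were AT1G65720 (distance 0.142), AT4G02370 (0.175), AT3G09860 (0.210), OEP16-1 (0.243) and PFN2 (0.260). On the same measure RBCS1A lay 0.0235 from the sum of which it is the largest part, RBCS3B 0.154, RBCS2B 0.254, RBCS1B 0.829 and RCA 1.097. The genes nearest to RCA were ATARCA (0.0132), SCO1 (0.0469), AT5G67510 (0.0608), AT1G18060 (0.0737) and APG1 (0.0747). ATARCA is AT1G18080, a different gene from RCA despite the similar name. It stood at 98.5 and 119.9 FPKM in wild-type, against 167.2 and 134.2 FPKM in atino80-5. With 4 libraries many genes can share such a pattern, and the distances are a description only.

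Among the 10 genes with the highest mean FPKM, RBCS1A ranked 1, RBCS3B 4 and RBCS2B 7. The others were the light-harvesting genes CAB1 and LHB1B2, the photosystem genes PSBR, PSBX, PSAG and PSBP-1, and THI1, an enzyme of thiamine synthesis. The drop of RBCS1A to rank 2 in atino80-5 replicate 1 left LHB1B2 in first place there, at 21649 FPKM against 5860 and 7728 FPKM in wild-type, against 10846 FPKM in atino80-5 replicate 2. PSAG stood at 5228 and 3372 FPKM in wild-type, against 2249 and 3165 FPKM in atino80-5.

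Rubisco needs chaperonins and assembly factors to fold and join its subunits. Of 18 such genes, all tested, 0 were called and 5 had an unadjusted p under 0.05, a level that 27.0% of all tested genes reached. Their median log2 difference was 0.28, beside 0.03 over all tested genes, and 12 of the 18 lay above 0. The median was 0.11 without atino80-5 replicate 1 and 0.47 without atino80-5 replicate 2. The chaperonin cofactor genes CPN20 and CPN10 had the smallest p-values. CPN20 stood at 150 ± 6.60 FPKM in wild-type, against 287 ± 56.3 FPKM in atino80-5 (SD, n = 2, log2 difference 0.92, limma adjusted p = 0.0668). CPN10 stood at 50.7 ± 8.70 and 99.5 ± 30.9 FPKM (SD, n = 2, log2 difference 0.93, limma adjusted p = 0.096). With libraries scaled to the same FPKM sum the median of the list was 0.02, beside -0.19 over all tested genes. On that scale 10 of 18 genes lay above 0.

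The other enzymes of the Calvin-Benson cycle and its CP12 regulators had values mostly above wild-type without passing the test. Of 19 genes, all tested, 0 rose, 1 fell and 18 were not called, where 2.99% of all tested genes rose and 2.42% fell. An unadjusted p under 0.05 was reached by 8 of the 19 (27.0% over all tested genes). The median log2 difference was 0.44, with 18 genes above 0, and it was 0.40 without atino80-5 replicate 1. With libraries scaled to the same FPKM sum it was 0.17, with 14 of 19 above 0, and after quantile normalisation it was 0.10, with 12 of 19. Over all tested genes the median was -0.19 with that scaling and -0.01 after quantile normalisation. The 1 gene that fell was TKL2, which encodes a transketolase. It went from 10.2 ± 0.0060 FPKM in wild-type to 5.39 ± 0.648 FPKM in atino80-5 (SD, n = 2, log2 difference -0.82, limma adjusted p = 0.0347). Its call ended without wild-type replicate 1 (adjusted p = 0.218), without wild-type replicate 2 (0.190) and with no filter on low values (0.0547).

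Photorespiration recycles the product that Rubisco makes when it takes oxygen in place of carbon dioxide. Of its 16 genes 15 were tested and 0 were called, with 4 at an unadjusted p under 0.05, beside 27.0% of all tested genes. The median log2 difference was 0.23. It was 0.20 without atino80-5 replicate 1, -0.03 with libraries scaled to the same FPKM sum and -0.12 after quantile normalisation. All tested genes had a median of -0.19 with that scaling and -0.01 after quantile normalisation. AGT1, a peroxisomal aminotransferase gene, stood at 763 ± 58.0 FPKM in wild-type, against 1282 ± 146 FPKM in atino80-5 (SD, n = 2, log2 difference 0.75, limma adjusted p = 0.116). GLDT, for the T protein of glycine decarboxylase, stood at 396 ± 54.6 and 719 ± 238 FPKM (SD, n = 2, log2 difference 0.83, limma adjusted p = 0.144).

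Light-harvesting and photosystem genes, the other very abundant transcripts of green cells, went both ways. Of 21 genes, all tested, 0 were called and 2 had an unadjusted p under 0.05, beside 27.0% of all tested genes. The median log2 difference was 0.10, beside 0.03 over all tested genes. With libraries scaled to the same FPKM sum it was -0.17, beside -0.19 over all tested genes. In FPKM as deposited the list median was -0.04 without atino80-5 replicate 1, 0.31 without atino80-5 replicate 2 and 0.06 without wild-type replicate 1. PSAD1, of photosystem I, stood at 1758 ± 433 FPKM in wild-type, against 1019 ± 148 FPKM in atino80-5 (SD, n = 2, log2 difference -0.77, limma adjusted p = 0.152). LHCB2.2, of the antenna of photosystem II, stood at 602 ± 61.9 and 390 ± 64.3 FPKM (SD, n = 2, log2 difference -0.63, limma adjusted p = 0.152). Between the mutant libraries, 14 of these 21 genes were higher in atino80-5 replicate 1, the library in which RBCS1A, RBCS2B and RBCS3B were lowest. So were 12 of 18 assembly, 13 of 19 Calvin-Benson and 9 of 15 photorespiration genes. Among the regulators it was 5 of 11, among root markers 5 of 13 and among epidermis markers 1 of 6.

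Regulators of RBCS and other photosynthesis genes were represented by 12 genes, of which 11 were tested, 0 rose and 2 fell. Over all tested genes 2.99% rose and 2.42% fell. An unadjusted p under 0.05 was reached by 2 of these genes, beside 27.0% of all tested genes. The median log2 difference was -0.12 (-0.15 without atino80-5 replicate 1 and -0.22 without atino80-5 replicate 2). CCA1, a MYB factor of the circadian clock, went from 3.69 ± 0.0991 to 0.901 ± 0.227 FPKM (SD, n = 2, log2 difference -1.31, limma adjusted p = 0.00987). GNL, a GATA factor gene that promotes greening, went from 3.73 ± 0.783 to 1.29 ± 0.398 FPKM (SD, n = 2, log2 difference -1.05, limma adjusted p = 0.0372), and its call ended without wild-type replicate 1 (0.141) and with no filter (0.0601). HY5, HYH and the 3 GBF genes, for factors that bind the G-box, were not called. HY5, named here after its values were seen, stood at 7.46 and 5.75 FPKM in wild-type, against 12.3 and 7.18 FPKM in atino80-5. The hour of harvest is not given in the labels, so altered clock timing and altered level cannot be told apart for CCA1.

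**Figure D4:**
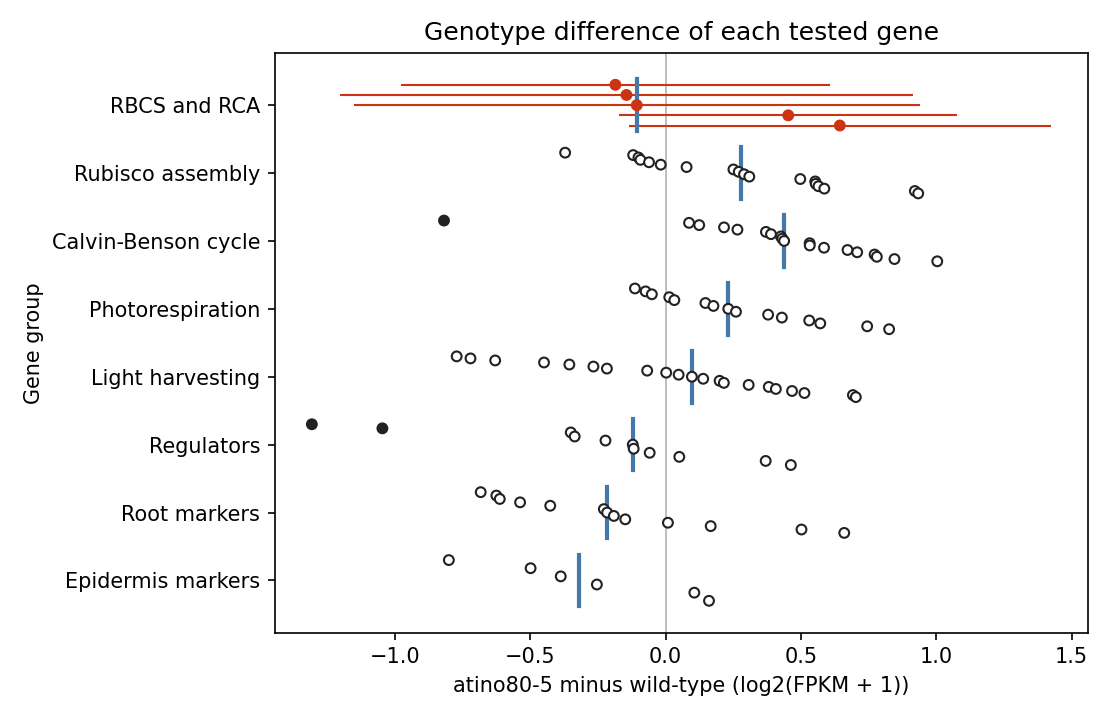
Log2 difference, atino80-5 minus wild-type on the log2(FPKM + 1) scale, of each tested gene in 8 groups, with blue bars for group medians, filled black points for genes that passed the test and red lines for the 95% intervals of the RBCS genes and RCA. All 5 red intervals include 0, and the filled points are TKL2, CCA1 and GNL.

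Markers of other tissues had values on both sides of wild-type. Of 15 root markers 13 were tested and 0 called (5 at an unadjusted p under 0.05, beside 27.0% of all tested genes), with WOX5 and RHD6 below the minimum level and none at 0. Their summed level was 491 and 546 FPKM in wild-type, against 651 and 752 FPKM in atino80-5, most of it from PYK10, and the median log2 difference was -0.22 (-0.02 without atino80-5 replicate 1 and -0.43 without atino80-5 replicate 2). NRT2.1 stood at 2.16 ± 0.0504 and 0.988 ± 0.399 FPKM (SD, n = 2, limma adjusted p = 0.0881) and MYB36 at 2.27 ± 0.477 and 1.12 ± 0.219 FPKM (SD, n = 2, limma adjusted p = 0.0959). Of 6 shoot epidermis and guard cell markers 0 were called (1 at an unadjusted p under 0.05) and none was at 0. Their summed level was 181 and 166 FPKM in wild-type, against 112 and 156 FPKM in atino80-5, and the median log2 difference was -0.32 (-0.07 without atino80-5 replicate 1 and -0.68 without atino80-5 replicate 2). KAT1, a guard cell potassium channel gene, stood at 3.78 ± 0.180 and 1.81 ± 0.832 FPKM (SD, n = 2, limma adjusted p = 0.0948), and PDF1, an epidermal gene, at 132 ± 10.9 and 95.1 ± 26.4 FPKM (SD, n = 2, limma adjusted p = 0.231). NRT2.1, MYB36 and KAT1 passed the test with libraries scaled to the FPKM sum (limma adjusted p = 0.0177, 0.0216 and 0.0205). They also passed it scaled to total reads (limma adjusted p = 0.0354, 0.0406 and 0.0450) and with a replicate block (0.0385, 0.0480 and 0.0217). Those settings called 13.6%, 9.17% and 11.3% of all tested genes. Scaled to the FPKM sum, 1836 of all calls were lower, as for these markers, and 557 higher. The part of tissue make-up in the values of the RBCS genes was not tested.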

How the data were processed

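Per the submitters' processing notes, HISAT2 and featureCounts were among the tools and TAIR10 was the build, with cutadapt, FastQC, SAMtools, deepTools and DESeq2 also listed. No source used here gives their versions, the annotation, the strand setting or the treatment of reads with several matches. The authors deposited FPKM values per library and per genotype mean, the mean normalised signal over the libraries, and their DESeq2 log2 fold changes with standard errors, test score, p-values and adjusted p-values. Combined with the deposited mean normalised signal, the FPKM values gave whole reads for 100% of 92696 values (tolerance 0.01), which also shows that they are scaled by size factors.

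Genes averaging 1 FPKM or more were tested for genotype on log2(FPKM + 1) by limma 3.58.1 (trend option, R 4.3.3), and p-values were adjusted by Benjamini and Hochberg over all tested genes. Folds on that scale understate the change of low genes. Sums, shares and ratios were compared by two-sided exact permutation in scipy 1.17.1. The code was tested on simulated reads. Sequences, spans and exons were read from the RefSeq annotation and genome of TAIR10.1 (pysam 0.24.0, alignments by Biopython 1.88). The files hold no coordinates, and the build named for them is TAIR10.

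The members and gene lists were chosen with earlier results of these data known. Named genes were INO80, the 5 members, up to 4 called genes of each list or else the 2 with the smallest p, the 10 with the highest mean and the 5 nearest in pattern to summed RBCS and to RCA. Alternatives were other pseudocounts, filters, scalings, limma settings, a replicate block, limma voom on recovered reads, exon lengths and each library left out.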

Additional observations from a re-analysis of the deposited data

How the results depend on the processing

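Under all 12 other settings and with each of the 4 libraries left out, 0 of the 5 genes were called. The count of called genes over the whole table was 955 and became 572 with a minimum of 5 FPKM, 2393 scaled to the FPKM sum, 1617 scaled to total reads, 1985 with the replicate block and 443 to 6896 with 1 library left out. It was 1342 with voom on the recovered reads. Scaled to the FPKM sum the calls split into 557 higher and 1836 lower, and scaled to total reads into 484 and 1133, against 528 and 427. A fit that leaves out a library keeps 1 library in a genotype, which is assumed to vary like the others.

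The log2 difference of RBCS1A ranged from -0.51 to 0.30 with a library left out, with 0.30 without atino80-5 replicate 1 and 0.13 without wild-type replicate 1. That of RBCS3B ranged from -0.65 to 0.36, with 0.36 and 0.10 in those fits, and that of RBCS2B from -0.51 to 0.14, with 0.14 without atino80-5 replicate 1. RBCS1B (0.30 to 0.99) and RCA (0.29 to 0.62) stayed above 0 in each. With a library left out the log2 difference of summed RBCS ranged from -0.50 to 0.32 (0.14 without wild-type replicate 1), the difference in RBCS share from -4.11 to 0.746 percentage points, and that in the ratio of RCA to RBCS from -0.00127 to 0.0291, each turning without atino80-5 replicate 1. The cause was not tested.

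Deviations of same-numbered libraries were nearly uncorrelated across genes (r = -0.0336). With 2 libraries per genotype the crossed pairing gives the same value with the other sign, so pairing is not settled. With the replicate block the adjusted p was 0.906 for RBCS1A, 0.271 for RBCS1B, 0.793 for RBCS2B, 0.863 for RBCS3B and 0.419 for RCA. In the other lists, CPN20 was called without the trend, with the block and with voom (adjusted p = 0.0466, 0.0481 and 0.0295), and without atino80-5 replicate 1 or replicate 2 (0.0373, 0.00323). CPN10 was called with the block (0.0262), PSAD1 scaled to the FPKM sum (0.0313), and LHCB2.2 scaled to the FPKM sum (0.0299) and by quantiles (0.0271). NRT2.1, MYB36 and KAT1 were called scaled to the FPKM sum, scaled to total reads and with the block. Of all tested genes, 13.6%, 9.17% and 11.3% were called in those settings. Without atino80-5 replicate 2, 11 assembly, 9 Calvin-Benson, 5 photorespiration and 6 light-harvesting genes were called, of 18, 19, 15 and 21, beside 39.1% of all tested genes in that fit. Over all results and settings, 393 values were scored as the same. For single genes that meant an unchanged direction and side of the threshold. For sums, shares and ratios it meant an unchanged direction, and for counts of calls an equal or similar count. Of the rest, 28 passed the threshold newly, 5 no longer passed, 37 counts moved and 9 values turned. The lowest of the 5 genes had 28544 reads in a library, so counting error is small beside the spread of the 2 libraries per genotype.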
